A study of Mus musculus with 52 samples.

Results

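The enhancer regions around 39 genes of the Wnt pathway are described here, among 24210 genes of the authors' gene table. The genes are 19 Wnt ligands, 12 receptors (10 Frizzled genes with Lrp5 and Lrp6), the 4 TCF/LEF transcription factors Tcf7, Tcf7l1, Tcf7l2 and Lef1, and 4 components of β-catenin turnover, namely Axin1, Axin2, Ctnnb1 and Gsk3b. The gene table gives coordinates only, and all 39 were located there by names taken from RefSeq or GENCODE. For some, Tcf7l2 and Wnt8a among them, the name came from overlap with an annotated gene and not from an exact match. Each of the 39 had 1 interval. An enhancer was tied to a gene when that gene's transcription start site (TSS) was the closest of the table to the enhancer's centre and lay no more than 50 kb from the enhancer. By this rule 17 of 5373 mESC enhancers tied to any gene, and 38 of 11613 EpiLC enhancers, belonged to the Wnt pathway genes.

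The study behind these tables profiled histone H3 lysine 27 marks, RNA polymerase II, Med1 and H3.3 by chromatin immunoprecipitation in 52 libraries, 43 of mouse embryonic stem cells (mESCs) and 9 of epiblast-like cells (EpiLCs), on a C57BL6/129Sv background. Control cells (ABE), clones with arginine at lysine 27 of canonical H3 (cK27R) or of all H3 (pK27R), SUZ12KO cells, an H3.3 knockout and its add-back clones (pK27WT and pK27R) make up 34 groups of 1 or 2 libraries. Per the labels, the mESCs grew without feeders in LIF with inhibitors of GSK3 and MEK1, so that controls and mutants alike received an inhibitor of GSK3, the kinase family to which the product of Gsk3b belongs. The 3 deposited tables give coordinates only, with 0 columns of values per library. Sequencing depth is therefore unknown, and the genotypes were not compared here. Per the design text the enhancers were defined in earlier publications of other groups, 8794 for mESCs and 16576 for EpiLCs, the latter from peaks of H3K27ac, H3K4me1 and p300. How the cells of those publications were grown is not stated there. A difference between the mESC and the EpiLC table and a difference in their definitions cannot be told apart. The tables are fixed lists without replicates, so each count below is set beside the same count over all genes or all regions and carries no test of significance. The cell types cannot be checked against marker genes from coordinates.

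In the canonical Wnt pathway, a secreted Wnt ligand binds a Frizzled receptor together with the co-receptor LRP5 or LRP6. This binding inhibits a complex of Axin, APC and the kinases GSK3 and CK1 that otherwise marks β-catenin, the product of Ctnnb1, for degradation. Stabilised β-catenin enters the nucleus and binds TCF/LEF proteins on DNA, of which TCF7L1 is known mainly as a repressor in mESCs and LEF1 and TCF7 mainly as activators. Inhibition of GSK3 stabilises β-catenin without a ligand and supports the naive state of mESCs, while Wnt signalling in the epiblast is needed for the primitive streak.

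To show what the regions look like at base level, the central 300 bp of 4 of them are printed, and their motif content is taken up again below. They are the window with most matches to the TCF/LEF motif CTTTGAT among the receptors (Fzd2) and among the TCF/LEF genes (Lef1), and the best windows at Axin2 and Tcf7l1. Each is the plus strand of mm10, and capitals mark CTTTGAT, or its first 6 letters CTTTGA where the seventh differs, on either strand (ATCAAAG or TCAAAG when read on the plus strand).
Fzd2, EpiLC region, chr11:102595514-102595813: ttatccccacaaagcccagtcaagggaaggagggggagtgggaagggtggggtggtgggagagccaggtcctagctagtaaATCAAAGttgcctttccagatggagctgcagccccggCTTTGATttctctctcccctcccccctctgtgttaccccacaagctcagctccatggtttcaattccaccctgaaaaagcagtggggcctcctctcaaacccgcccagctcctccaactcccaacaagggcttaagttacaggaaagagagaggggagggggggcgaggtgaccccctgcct
Lef1, mESC region, chr3:131084756-131085055: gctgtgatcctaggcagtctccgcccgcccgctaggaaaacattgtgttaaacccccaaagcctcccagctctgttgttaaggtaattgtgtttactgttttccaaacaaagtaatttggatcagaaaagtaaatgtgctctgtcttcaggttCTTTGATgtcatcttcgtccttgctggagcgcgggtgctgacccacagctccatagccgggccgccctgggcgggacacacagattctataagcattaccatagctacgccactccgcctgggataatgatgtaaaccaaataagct
Axin2, EpiLC region, chr11:108910314-108910613: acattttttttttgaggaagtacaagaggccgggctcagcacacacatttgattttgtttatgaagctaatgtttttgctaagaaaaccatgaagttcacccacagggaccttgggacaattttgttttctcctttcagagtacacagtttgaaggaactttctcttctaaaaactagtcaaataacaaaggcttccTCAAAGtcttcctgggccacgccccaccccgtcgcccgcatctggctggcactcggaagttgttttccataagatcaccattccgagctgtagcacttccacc
Tcf7l1, EpiLC region, chr6:72758689-72758988: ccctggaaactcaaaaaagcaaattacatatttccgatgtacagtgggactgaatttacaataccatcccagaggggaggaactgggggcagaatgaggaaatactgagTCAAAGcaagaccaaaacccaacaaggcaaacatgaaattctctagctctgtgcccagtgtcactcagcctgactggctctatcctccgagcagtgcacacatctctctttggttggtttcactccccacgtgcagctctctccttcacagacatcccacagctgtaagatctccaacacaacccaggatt
The Fzd2 window held 2 matches to CTTTGAT and the Lef1 window 1, while those of Axin2 and Tcf7l1 held 0 and only the 6-letter core once each.

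Most enhancers of the Wnt pathway genes lay at TCF/LEF factors and receptors, with 12 of 17 in the mESC and 30 of 38 in the EpiLC table. At least 1 mESC enhancer was tied to 12 of the 39 genes (30.8%), against 18.9% of all genes and 19% of the 19953 protein-coding genes, to which all 39 belong. At least 1 EpiLC enhancer was tied to 18 genes (46.2%), against 31.2% of all genes and 32.2% of protein-coding genes. Enhancers of both tables were tied to 10 genes (25.6%), against 12.2% and 12.4%. Neither table had a region for 19 genes (48.7%), against 62.0% of all genes, and the median count per gene was 0 in both tables for the Wnt pathway genes and for all genes. The mean was 0.44 mESC and 0.97 EpiLC enhancers per Wnt pathway gene, against 0.22 and 0.48 over all genes.

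The spacing of genes moved with these shares. The median distance to the next TSS of the table was 35.5 kb for the Wnt pathway genes and 19.7 kb for all genes. Among protein-coding genes whose next TSS was within 20 kb, 11.05% had an mESC and 26.5% an EpiLC enhancer. Of those with the next TSS over 20 kb away 26.9% and 37.7% did, beside 10 and 15 of the 28 Wnt pathway genes spaced as widely (35.7% and 53.6%). With the next TSS within 20 kb, 2 and 3 of 11 Wnt pathway genes had one (18.2% and 27.3%), the EpiLC share lying close to that of protein-coding genes. The part of spacing in the shares was not tested. When instead every gene within 50 kb of an enhancer was counted, the shares of Wnt pathway genes lay close to those of all genes, at 16 of 39 (41.0%) against 36.1% for mESC and 23 of 39 (59.0%) against 57.5% for EpiLC enhancers.

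**Figure D1:**
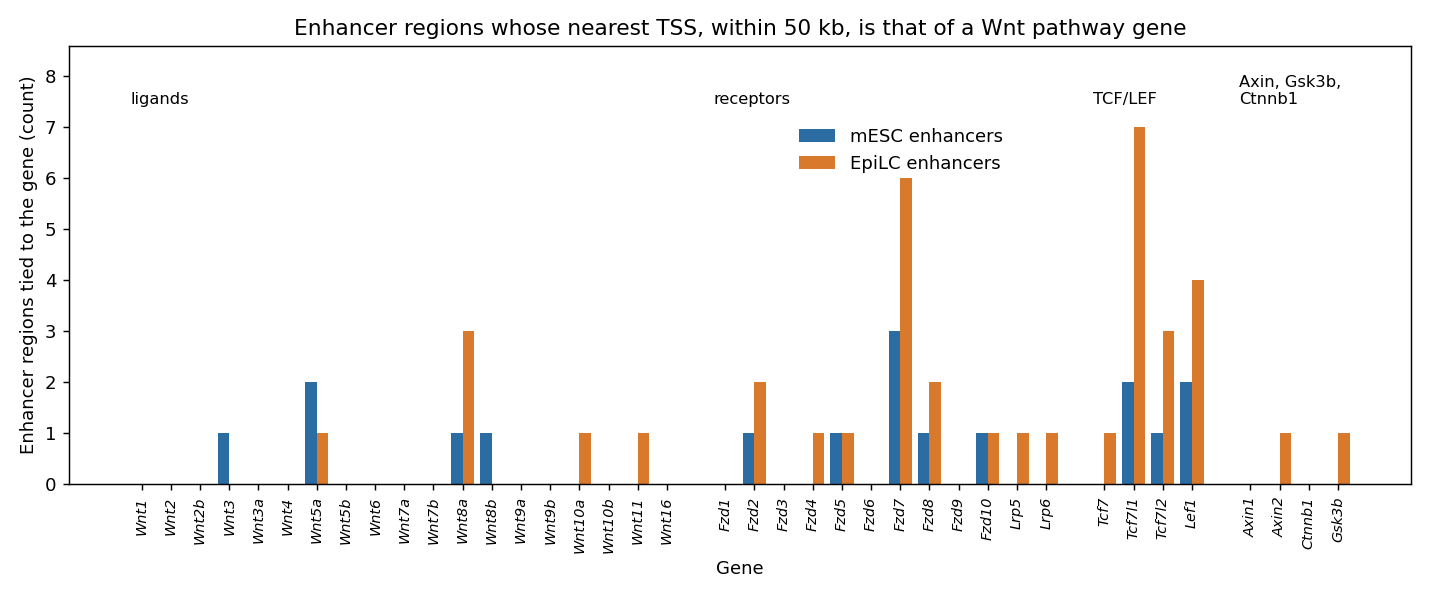
Number of mESC (blue) and EpiLC (orange) enhancer regions tied to each of the 39 genes (vertical axis, count), grouped by class along the horizontal axis. Tcf7l1 with 7 and Fzd7 with 6 EpiLC regions stand highest, and 19 genes have no bar.

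The 4 TCF/LEF genes, which encode the DNA-binding partners of β-catenin, had 5 mESC and 15 EpiLC enhancers, so that 15 of the 38 EpiLC enhancers of all Wnt pathway genes lay at these 4. Each of the 4 had at least 1 EpiLC enhancer, and 3 of the 4 had at least 1 mESC enhancer. The EpiLC total of the 4 genes was 9 with GENCODE transcripts in place of the gene table, and within 20 kb of the TSS the totals were 3 mESC and 7 EpiLC enhancers. Of the 39 genes, 5 (12.8%) had 3 or more EpiLC enhancers, against 3.91% of all genes and 4.1% of protein-coding genes, and these were Tcf7l1, Lef1, Tcf7l2, Fzd7 and Wnt8a. The first 3 have intervals of 162675, 114061 and 191846 bp. Of protein-coding genes with intervals of at least 100 kb, 36.8% had an EpiLC enhancer and 7.96% had 3 or more, and the part of gene length in the counts was not tested.

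Tcf7l1, the main TCF repressor of mESCs, lies on the minus strand of chromosome 6 (72626371 to 72789045) and had 2 mESC and 7 EpiLC enhancers. Only 26 of the 24210 genes (0.107%) had 7 or more EpiLC enhancers, and 702 genes (2.90%) had 2 or more mESC enhancers. The first mESC region, of 8633 bp (chr6:72786987-72795619), covered the TSS and was centred 2.26 kb upstream of it. The second, of 5139 bp (chr6:72753834-72758972), was centred in an intron 32.6 kb downstream. Each of the pair overlapped 2 EpiLC regions, so that 4 of the 7 EpiLC regions overlapped mESC regions. These overlaps were partial, each over 16.5 to 36.7% of the mESC region, with centres 2436 to 3648 bp apart.

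The EpiLC regions at Tcf7l1 formed groups near the TSS and within the gene. A region of 3300 bp (chr6:72786852-72790151) covered the TSS and a region of 2800 bp (chr6:72793552-72796351) was centred 5.91 kb upstream, and both overlapped the first mESC region. Downstream, 4 regions were centred between 27.1 and 39.7 kb from the TSS, of which those at 30.2 and 35.3 kb overlapped the second mESC region. The region at 39.7 kb was the longest (4775 bp, chr6:72747002-72751776) and overlapped no mESC region. A last region of 1150 bp lay 36.0 kb upstream between genes (chr6:72824427-72825576), also without an mESC counterpart. Merging overlapping regions of both tables left 5 sites at Tcf7l1, of which 2 held partly overlapping regions of both tables and 3 regions of the EpiLC table alone.

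The interval of Tcf7l1 held further regions that the rule tied elsewhere. In its introns, 111 and 133 kb downstream of the TSS, lay 2 mESC regions (chr6:72677330-72678127 and chr6:72655778-72656397), each overlapped by an EpiLC region. Their closest TSS was that of Gm15401. A further EpiLC region at 52.1 kb (chr6:72736327-72737626) fell just beyond the 50 kb limit. With these, 4 mESC and 10 EpiLC regions were tied to Tcf7l1 or overlapped its interval. Upstream of the gene, an EpiLC region with its edge 50.7 kb from the TSS (chr6:72839777-72845226) also fell beyond the limit. So did an mESC region that lay within it (chr6:72841004-72841772). With GENCODE transcripts in place of the gene table the count of EpiLC regions at Tcf7l1 was 3 in place of 7, and that of Lef1 was 2 in place of 4. Within 20 kb of the TSS, Tcf7l1 had 1 mESC and 2 EpiLC regions, and Lef1 had 1 of each.

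**Figure D2:**
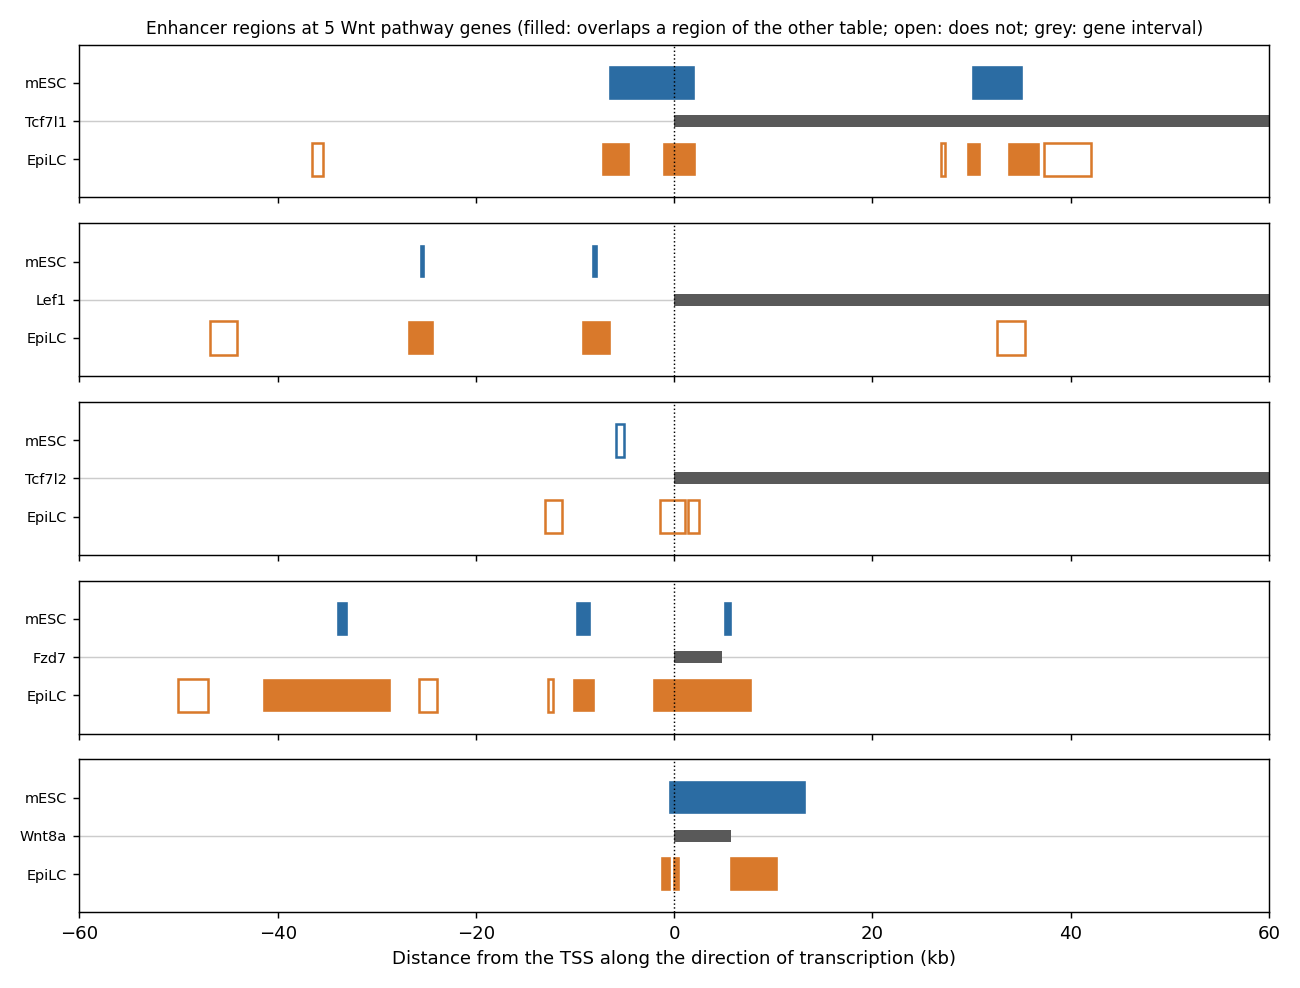
Enhancer regions at Tcf7l1, Lef1, Tcf7l2, Fzd7 and Wnt8a, drawn to scale by distance from the TSS along the direction of transcription (horizontal axis, kb), with mESC regions (blue) above and EpiLC regions (orange) below the gene interval (grey). Filled boxes overlap a region of the other table and open boxes do not: all mESC regions are filled except the one at Tcf7l2, and all 3 EpiLC regions at Tcf7l2 are open.

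Lef1, an activating TCF/LEF factor on the plus strand of chromosome 3 (131110297 to 131224357), had 2 mESC and 4 EpiLC enhancers. Both mESC regions lay upstream between genes, one of 601 bp at 25.4 kb (chr3:131084606-131085206) and one of 578 bp at 7.98 kb (chr3:131102033-131102610). Each was contained in an EpiLC region (2675 and 2925 bp), with centres 167 and 118 bp apart. The other EpiLC regions were centred 45.5 kb upstream (chr3:131063427-131066226) and 34.0 kb downstream in an intron (chr3:131142827-131145676). Lef1 thus had 4 sites, 2 in both tables and 2 in the EpiLC table alone.

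Tcf7l2 and Tcf7 had no region in common between the tables, Tcf7 because it had no mESC region. Over all genes, 46.9% of mESC and 24.8% of EpiLC regions tied to a gene overlapped the other table. Tcf7l2, a TCF factor with activating and repressing forms, lies on the plus strand of chromosome 19 (55741810 to 55933655). Its only mESC region, of 720 bp, was centred 5.46 kb upstream (chr19:55735987-55736706) and overlapped no EpiLC region. Of its 3 EpiLC regions, one of 2500 bp covered the TSS (chr19:55740427-55742926), one was centred 1.94 kb downstream (chr19:55743202-55744301) and one 12.2 kb upstream (chr19:55728777-55730451). Without regions centred at promoters, Tcf7l2 had 1 EpiLC region. Tcf7, which encodes TCF1, on the minus strand of chromosome 11 (52252283 to 52283014), had 0 mESC regions and 1 EpiLC region of 1375 bp, centred 3.55 kb upstream (chr11:52285877-52287251).

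The TSSs of Tcf7l1 and Tcf7l2 are both covered by an EpiLC region, and their RefSeq promoters (GRCm38.p6, the assembly named mm10 elsewhere) are printed to show the CpG-rich sequence under those regions. Each spans 300 bases around the RefSeq start, read in the direction of transcription, with capitals marking CpG dinucleotides.
Tcf7l1 promoter, chr6:72788996-72789295, minus strand: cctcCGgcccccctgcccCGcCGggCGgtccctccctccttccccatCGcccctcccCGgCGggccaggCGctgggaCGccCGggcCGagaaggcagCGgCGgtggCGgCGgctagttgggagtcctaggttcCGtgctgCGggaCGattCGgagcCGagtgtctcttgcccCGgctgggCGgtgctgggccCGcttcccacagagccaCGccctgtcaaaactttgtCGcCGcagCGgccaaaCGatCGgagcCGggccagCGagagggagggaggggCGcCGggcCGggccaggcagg
Tcf7l2 promoter, chr19:55741560-55741859, plus strand: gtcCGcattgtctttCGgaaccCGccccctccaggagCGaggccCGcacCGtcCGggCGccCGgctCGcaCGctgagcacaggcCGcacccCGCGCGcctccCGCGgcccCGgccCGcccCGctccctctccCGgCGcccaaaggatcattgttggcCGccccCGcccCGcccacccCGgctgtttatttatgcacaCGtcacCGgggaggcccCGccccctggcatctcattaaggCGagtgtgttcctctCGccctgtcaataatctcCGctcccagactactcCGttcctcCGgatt
Each holds 34 CpG dinucleotides, and all 300 bp of each lie within the EpiLC region. Of the Wnt pathway genes, 28 matched a RefSeq promoter, with 37 promoters in all. Their median was 29 CpG and 70% G+C, against 13 CpG and 56.3% over 21263 promoters of protein-coding genes. The median was 24 CpG in 17 promoters of 11 genes with an EpiLC enhancer and 30 in 20 promoters of 17 genes without one. Among the former are 4 promoters of Lef1, with 5 to 21 CpG, so promoters are not independent. Medians by gene were not taken, and no difference is read from these values. Of the 37 promoters 30 held more CpG than the median protein-coding promoter. The lowest counts were 4, in 1 of 3 promoters of Wnt5b, and 5, in 1 of 4 promoters of Lef1.

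The 12 receptor genes had 7 mESC and 15 EpiLC enhancers, tied to 5 (41.7%) and 8 (66.7%) of the genes, against 19% and 32.2% of protein-coding genes. With GENCODE transcripts the totals were 4 and 10, and with every gene within 50 kb counted they were 8 and 25. Under the latter rule the receptor genes with a region stayed at 5 and 8 of 12, against 35.9% and 58.3% of protein-coding genes. Fzd2, Fzd5, Fzd7, Fzd8 and Fzd10 had regions of both tables. Fzd4, Lrp5 and Lrp6 had an EpiLC region alone, and Fzd1, Fzd3, Fzd6 and Fzd9 had none. All 7 mESC regions of the receptors overlapped an EpiLC region, against 46.9% of all mESC enhancers tied to genes, and 3 of the 7 are neighbours at Fzd7. In the table of merged sites, receptors had 15 sites, 7 in both tables, 8 in the EpiLC table alone and 0 in the mESC table alone. No such split was counted over all genes.

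Fzd7, a Frizzled receptor on the plus strand of chromosome 1 (59482147 to 59486955), had 3 mESC and 6 EpiLC enhancers. In all, 91 genes (0.376%) had 3 or more mESC enhancers and 64 genes (0.264%) 6 or more EpiLC enhancers. The mESC regions were centred 33.4 and 9.19 kb upstream (chr1:59448164-59449278 and chr1:59472217-59473704) and 5.40 kb downstream (chr1:59487139-59487960), and each lay wholly within an EpiLC region. The EpiLC region around the most distant of them was the longest of all 38, with 12925 bp (chr1:59440627-59453551). The region that covered the TSS and the gene had 9925 bp (chr1:59480052-59489976). The 3 EpiLC regions without an mESC counterpart were centred 48.6, 24.8 and 12.4 kb upstream. The EpiLC regions at Fzd7 covered 30.4 kb in total, against 3.43 kb for the mESC regions. Over all genes, tied EpiLC regions covered 29747.3 kb and tied mESC regions 10608.5 kb. Beyond the 50 kb limit, and so not counted, lay an mESC region with its edge 54.6 kb from the TSS (chr1:59422664-59427560). EpiLC regions with edges at 53.6 and 56.1 kb were left out likewise. With GENCODE transcripts in place of the gene table, Fzd7 had 1 mESC and 3 EpiLC regions, and within 20 kb of the TSS it had 3 EpiLC regions.

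At the other receptors, regions lay mostly at or within 5 kb of the gene. Fzd2, on chromosome 11 (102604431 to 102608058), had an mESC region of 554 bp centred 0.846 kb upstream of the TSS (chr11:102603309-102603862), inside an EpiLC region of 3650 bp that covered the TSS (chr11:102601677-102605326). A second EpiLC region, 8.77 kb upstream, had no mESC counterpart and is the source of the Fzd2 window printed above. Fzd8, on chromosome 18 (9212856 to 9216201), had an mESC region of 2163 bp over the 3' part of its interval, overlapped by an EpiLC region of 1325 bp, and a further EpiLC region 15.2 kb upstream. Fzd5 and Fzd10 had 1 region in each table. The rule left out a second EpiLC region over the TSS of Fzd10 (chr5:128600202-128601151), because the antisense gene Fzd10os starts 0.419 kb away and was closer. Of the co-receptors, Lrp5 had an EpiLC region 0.163 kb from its TSS and Lrp6 one in an intron 49.7 kb away, just inside the limit.

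The 19 ligand genes had 5 mESC and 6 EpiLC enhancers, and each table had regions for 4 of them (21.1%), against 19% and 32.2% of protein-coding genes. The mESC share thus lay near the background and the EpiLC share below it, a difference of few genes. These counts moved with the distance rule: within 20 kb each table had regions for 2 of 19 ligands, against 13.5% (mESC) and 26.7% (EpiLC) of protein-coding genes. With every gene within 50 kb counted there were 8 mESC regions at 7 ligands and 13 EpiLC regions at 8, against 35.9% and 58.3% of protein-coding genes. Only Wnt5a and Wnt8a had regions of both tables. Wnt3 and Wnt8b had an mESC region alone, Wnt10a and Wnt11 an EpiLC region alone. The remaining 13, without a region in either table, were Wnt1, Wnt2, Wnt2b, Wnt3a, Wnt4, Wnt5b, Wnt6, Wnt7a, Wnt7b, Wnt9a, Wnt9b, Wnt10b and Wnt16. Wnt5b held 2 EpiLC regions inside its interval, each centred within 1 kb of a GENCODE TSS and 94.5 and 95.5 kb from the start that the gene table gives. The rule tied them to Fbxl14. With GENCODE transcripts, ligands had 8 EpiLC regions at 5 of 19 genes, close to the 28.9% of protein-coding genes with one.

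Wnt8a, a ligand of the early embryo on chromosome 18 (34542328 to 34548061), had the longest mESC region of the Wnt pathway genes. That region of 13849 bp (chr18:34541787-34555635) covered the TSS and the whole gene and was the only one of the 17 longer than 10 kb. The 3 EpiLC regions of Wnt8a, with 1050, 700 and 4850 bp, all overlapped it, so that the 4 regions formed 1 site. Without regions centred at promoters, Wnt8a had 1 EpiLC region. Among the regions of ligands, those of Wnt8a made up 1 of 5 in the mESC table and 3 of 6 in the EpiLC table. Wnt5a, which signals mostly without β-catenin, lies on chromosome 14 (28505473 to 28525515), 512.7 kb from the next TSS. Its mESC regions were centred 7.53 kb downstream in an intron (chr14:28512632-28513364) and 23.1 kb downstream beyond the gene (chr14:28528187-28528930). Only the latter lay in an EpiLC region (1575 bp, centres 31 bp apart).

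Of the ligand genes, 8 form 4 neighbouring pairs. The TSSs of Wnt1 and Wnt10b are 11.7 kb apart, those of Wnt3a and Wnt9a 16.2 kb, those of Wnt6 and Wnt10a 20.1 kb, and those of Wnt3 and Wnt9b 24.4 kb. The first pair and the Wnt3a pair had 0 regions in both tables. The Wnt6 pair had 1 EpiLC region, at Wnt10a, and the Wnt3 pair 1 mESC region, in an intron of Wnt3. Regions tied to other genes lay nearby, the closest EpiLC region 14.5 kb from the TSS of Wnt10b and the closest mESC region 32.0 kb from that of Wnt1.

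The 4 components of β-catenin turnover had 0 mESC and 2 EpiLC enhancers, or 0 and 0.50 per gene, against 0.22 and 0.50 per protein-coding gene. With 4 genes, no difference from the background is read from these counts. With GENCODE transcripts there were 2 mESC regions, at 1 gene, and 3 EpiLC regions. Axin2, a scaffold of the destruction complex and a widely used target gene of the pathway, on chromosome 11 (108920349 to 108950781), had an EpiLC region of 2775 bp centred 9.89 kb upstream (chr11:108909077-108911851), and its closest mESC enhancer lay 149 kb from the TSS. Gsk3b, on chromosome 16 (38089001 to 38246084), had an EpiLC region 35.1 kb upstream (chr16:38053527-38054301). Its own TSS lay in another EpiLC region (chr16:38087702-38090676), which the rule tied to BC031361, whose TSS is 0.259 kb away. The interval of Gsk3b also held 2 mESC regions in introns, 26.4 and 61.7 kb downstream, neither overlapped by an EpiLC region. Axin1 and Ctnnb1 had none in either table, and the closest EpiLC region lay 113 kb from the TSS of Axin1 and 13.4 kb from that of Ctnnb1.

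**Figure D3:**
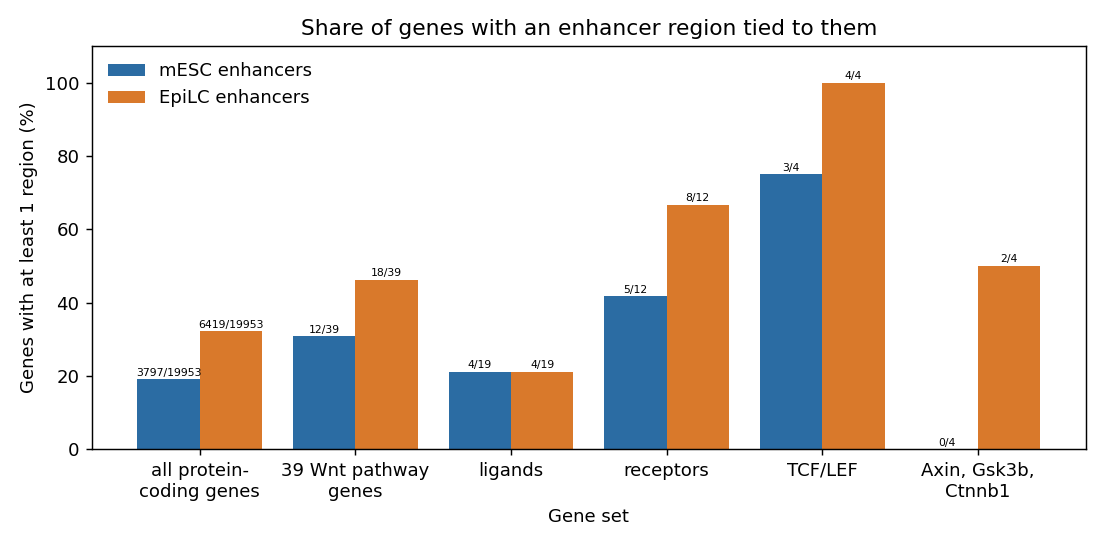
Percentage of genes with at least 1 mESC (blue) or EpiLC (orange) region tied to them (vertical axis, from 0), for all protein-coding genes, the 39 Wnt pathway genes and each class, with counts above the bars. Shares range from 0 of 4 (mESC, β-catenin turnover) to 4 of 4 (EpiLC, TCF/LEF).

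The distance from each TSS to its closest region, whichever gene that region was tied to, was shortest at TCF/LEF genes in both tables. For EpiLC enhancers the median was 1.43 kb for TCF/LEF genes, 2.97 kb for receptors, 10.97 kb for β-catenin turnover and 61.2 kb for ligands, against 34.7 kb for protein-coding genes. For mESC enhancers the median was 6.40 kb for TCF/LEF genes, 59.2 kb for ligands, 66.4 kb for receptors and 161 kb for β-catenin turnover, against 83.4 kb for protein-coding genes. Receptors split widely: 5 lay within 5 kb of an mESC region and the other 7 more than 60 kb away. Fzd1 was the most distant of the Wnt pathway genes, 408 kb from the closest region in either table. Classes of 4 genes rest on few values, and their medians are given as description.

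**Figure D4:**
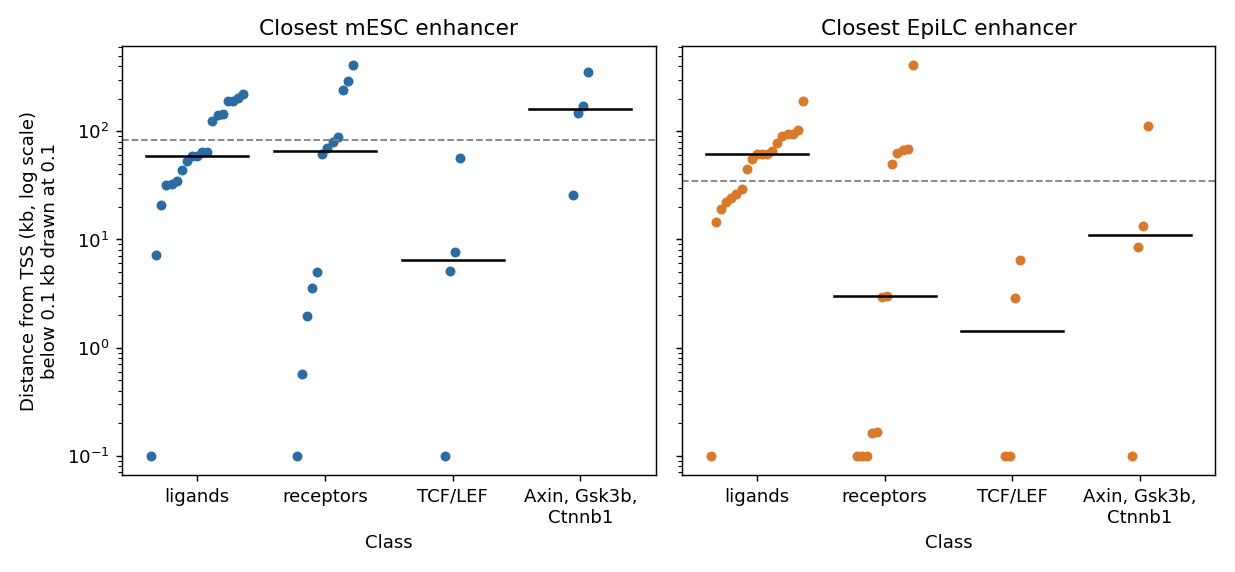
Distance from the TSS of each Wnt pathway gene (points) to the closest mESC enhancer (left) and EpiLC enhancer (right), in kb on a log axis, by class, with class medians (black) and the median of protein-coding genes (dashed). Points at 0.1 kb are TSSs covered by a region or under 0.1 kb from one. The TCF/LEF points lie at or below 6.40 kb in the EpiLC panel.

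The tables were then compared at the Wnt pathway genes. An overlap of at least 1 bp with the EpiLC table was found for 13 of the 17 mESC enhancers (76.5%), against 46.9% of all mESC enhancers tied to genes. Of the 38 EpiLC enhancers 17 (44.7%) overlapped an mESC enhancer, against 24.8%. Of these regions, 7 of the 17 and 17 of the 38 lay at Fzd7, Tcf7l1 and Lef1, so they are not independent. The 4 mESC enhancers without an EpiLC counterpart were those of Wnt3, Wnt8b and Tcf7l2 and the intronic one of Wnt5a. After merging, the 55 regions formed 38 sites, of which 13 were in both tables, 21 in the EpiLC table alone and 4 in the mESC table alone. Merged sites were not counted over all genes, so these splits have no background. The EpiLC table is the larger, with 16576 regions against 8794.

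Length moved with overlap. Median length was 931 bp for mESC and 2163 bp for EpiLC enhancers of Wnt pathway genes, against 736 and 1875 bp for all regions tied to genes. Among mESC enhancers up to 1000 bp, 5 of 9 at Wnt pathway genes (55.6%) overlapped an EpiLC enhancer, against 38.3% of all tied to genes, and above that length 8 of 8, against 74.4%. With an overlap of 50% or more of each region, the mESC count was 3 of 17 (17.6%), against 9.57%, and with all regions cut to 500 bp it was 6 of 17 (35.3%), against 26.5%. In the same order, the EpiLC counts were 3 of 38 (7.89%), against 4.43%, and 6 of 38 (15.8%), against 12.6%. Regions at the same gene are neighbours and not independent, and the part of length in the higher share was not tested. Of the 13 overlapping mESC regions, 8 lay wholly inside the EpiLC region.

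A smaller share of EpiLC regions at Wnt pathway genes lay at promoters than of that table's other regions tied to genes. The centre fell no more than 1 kb from a GENCODE TSS in 7 of 38 EpiLC regions (18.4%), against 33.8% of all tied to genes, and in 2 of 17 mESC regions (11.8%), against 12.2%. Tcf7l1, Fzd7 and Lef1 held 7, 6 and 4 of the 38, with 1, 0 and 0 at promoters, so the regions are not independent. EpiLC regions centred at promoters that overlapped the intervals of Wnt5b (2), Fzd10 (1) and Gsk3b (1) were tied to other genes and are not counted. Intergenic centres made up 21 EpiLC (55.3%) and 9 mESC regions (52.9%), against 30.5% and 38.2%, and introns 5 and 3, against 32.4% and 45.5%. Frizzled genes are short, with a median interval of 4.59 kb against 17.0 kb for protein-coding genes. The median of TCF/LEF genes was 138 kb, and 7 of their 15 EpiLC and 4 of their 5 mESC regions were intergenic. The part of gene length in these shares was not tested.

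Motif letters were counted to ask whether the regions hold binding motifs of the pathway's own factors. The 55 regions of both tables formed 38 merged sites, so some sequence was counted under both tables and the regions are not independent. CTTTGAT, on either strand of the central 300 bp, occurred in 4 of 55 regions (7.27%), against 5.08% of all 25370 enhancers, a difference of few regions. These 4 were at Lef1 in the mESC table (1 of 17, against 6.64%) and at Fzd2, Fzd8 and Fzd10 in the EpiLC table (3 of 38, against 4.25%). The core CTTTGA, which every CTTTGAT contains, occurred in 6 of 17 mESC windows (35.3%), against 27.7%, and in 13 of 38 EpiLC windows (34.2%), against 19.2%. In whole regions CTTTGA occurred 0.807 times per kb at Wnt pathway genes, against 0.775 over both tables. The octamer ATGCAAAT, bound by POU factors such as OCT4, occurred in 1 window, the EpiLC one of Tcf7 (1.82%, against 5.25% over both tables, 8.78% of mESC and 3.37% of EpiLC windows), and TAATCC, a core of the OTX2 motif, in 4 windows (7.27%, against 12.4%). In whole regions TAATCC occurred in 27 of 55 (49.1%, against 46.6% over both tables) and ATGCAAAT in 5 of 55 (9.09%, against 16.3%). Median G+C of the windows was 47% in mESC and 51% in EpiLC regions, against 45.3% and 49% in the whole tables. In promoters, CTTTGAT occurred in 2 of 37, those of Wnt11 and Wnt5b (5.41%, against 3.22% of protein-coding promoters).

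Other genes of the pathway, 58 of a list of 59 with Pygo1 not analysed here, were counted in the same way. An mESC enhancer was tied to 16 (27.6%) and an EpiLC enhancer to 24 (41.4%), against 19% and 32.2% of protein-coding genes. The highest counts were those of Tle3, a corepressor bound by TCF factors, with 2 mESC and 8 EpiLC enhancers. Lgr4, a receptor of R-spondins, had 1 and 4, Vangl1, a planar polarity protein, 2 and 3, and Bcl9, a coactivator of β-catenin, 1 and 3. Porcn, which acylates Wnt ligands, and Vangl2 each had 1 and 2. Of 18 antagonists and turnover genes 4 had an mESC and 3 an EpiLC enhancer (22.2% and 16.7%), and of 19 intracellular components 6 and 11 (31.6% and 57.9%).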

How the data were processed

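The authors deposited 3 tables of mm10 coordinates (chromosome, start, end, strand). ChIP signal was not analysed here. Trimmomatic 0.38, Bowtie2 2.3.4.1 and bedtools 2.29.2 are named in the submitters' processing notes, and their role is not given in the sources used here. Per the labels' design text, the authors lifted the published enhancers over to mm10. Names came from RefSeq or GENCODE M21, where start and end matched exactly or where overlap on one strand reached 0.8 of the combined span. Of 24402 rows, 24263 were kept after exact duplicates (120) and rows on scaffolds or beyond a chromosome's end (19), and 23798 of these had a name. Unnamed rows still counted as TSSs. Starts were taken to count from 0 and are printed 1-based, which leaves enhancer starts uncertain by 1 bp. Distances to a centre run along transcription. The planned limma test had no values to run on, and no replicate stands behind any count.

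The genes, lists and alternatives were chosen with earlier results of these data known. The protein-coding, spacing and length comparisons were added after the counts were seen, as was the use of CTTTGA to settle ties between printed windows. Genes named with positions are the TCF/LEF and β-catenin turnover genes and others with 3 or more regions. Of the wider list, the 6 genes with most regions are named. Motifs were sought as exact letters on both strands of GRCm38.p6. The steps that tie regions and count overlaps were tested on simulated positions (Python 3.11.15). The simulated TSSs were widely spaced, so the choice between close TSSs was not tried.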

Additional observations from a re-analysis of the deposited data

How the results depend on the processing

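No paired analysis was possible because the tables hold no value per library. The counts of regions at Wnt pathway genes depended most on the distance rule. Within 20 kb there were 11 mESC and 23 EpiLC enhancers, and 59 EpiLC pairs of a region and a gene when every gene within 50 kb was counted, against 17 and 38 in the report. The number of genes with a region moved by less than 1.5 times in every alternative, from 10 to 16 for mESC and from 14 to 23 for EpiLC enhancers. Their shares beside those of all genes also depended on the rule. With every gene within 50 kb counted they were 41.0% against 36.1% for mESC and 59.0% against 57.5% for EpiLC enhancers. Within 20 kb they were 25.6% against 13.2% and 35.9% against 25.6%, and in the report 30.8% against 18.9% and 46.2% against 31.2%. The overlap between tables depended on its definition. With at least 50% of both regions shared it was 17.6% of mESC and 7.89% of EpiLC enhancers, against 9.57% and 4.43% of all tied to genes. With regions cut to 500 bp it was 35.3% and 15.8%, against 26.5% and 12.6%. CTTTGAT occurred in 30.9% of whole regions (25.5% over both tables), and CTTTGA in 34.5% of central windows (22.2% over both tables). In these motif shares, overlapping mESC and EpiLC regions share sequence and are not independent. Without the opening block of long regions in the mESC table, which holds none of the 17, the mESC counts stayed as they were. The totals of single classes moved more than the sum, as given beside each. Depth is unknown, and a gene without a region may have enhancers that these lists do not hold.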
